A study of Mus musculus with 4 samples.

Results

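The enzymes by which the mitochondria of infarcted mouse hearts oxidize pyruvate, ketone bodies and branched-chain amino acids were examined in 36 genes, chosen by symbol as a fixed list of the tricarboxylic acid cycle, its feeder complexes and the malate-aspartate shuttle. All 36 were found among 19505 named genes on the arrays, each through 1 probe. The list is one of pathway membership, drawn up with earlier results of these data known. RNA came from whole hearts of 4 male mice whose left coronary artery had been ligated at 8 weeks of age, with collection 3 months after the infarct. The 2 control hearts (Ctrl-MI) had the genotype Tcf21iCre/Tomato and the 2 transgenic hearts (TTg-MI) the genotype Tcf21iCre/Tomato/MGTH2A, so that the Cre recombinase, the Tomato reporter, the infarct and the male sex were common to both groups. From general knowledge, MGTH2A joins Mef2c, Gata4, Tbx5 and Hand2 in 1 construct, factors that can turn fibroblasts into cells resembling heart muscle. Tcf21, the gene whose name the Cre carries, marks cardiac fibroblasts. The series compared infarcted hearts with and without this construct, and mice with an ejection fraction above 45% at 2 days after the infarct had been left out by the submitters. A heart without infarct was not analysed here.

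The tricarboxylic acid cycle burns acetyl-CoA to carbon dioxide and hands electrons to the respiratory chain. Heart muscle is packed with mitochondria and takes its acetyl-CoA mostly from fatty acids, and otherwise from pyruvate through the pyruvate dehydrogenase complex, from ketone bodies and from leucine, isoleucine and valine. The pyruvate, oxoglutarate and branched-chain dehydrogenase complexes are built alike, share the subunit dihydrolipoamide dehydrogenase, and 2 of them are switched off by dedicated kinases and on by dedicated phosphatases.

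The values were taken as log2 expression and a difference is always the mean of the transgenic hearts less that of the controls. The hearts are called control 1, control 2, transgenic 1 and transgenic 2 after the group and replicate number in the labels. Array medians lay between 6.55 and 6.62, and Pearson correlations across probes ran from 0.977 to 0.991, with control 2 at 0.987 with the other control and at 0.989 and 0.991 with the TTg-MI arrays. Of the construct's 4 factors, Tbx5 (difference 2.45) and Mef2c (2.15) were higher in each transgenic heart than in either control, whereas Gata4 (0.16) and Hand2 (0.78) overlapped. The labelled tissue showed its defining muscle genes: 5 of 8 cardiomyocyte markers lay within 1 log2 unit of the highest value on every array. Other cell types differed between the arrays. All 6 measured fibroblast markers and all 6 macrophage markers were highest on control 1 and lower in each transgenic heart than in either control. Their summed signal on the log2 scale was 18.63 to 19.29 in Ctrl-MI and 17.90 to 18.50 in TTg-MI for fibroblasts, and 13.65 to 14.96 and 11.94 to 13.07 for macrophages. The atrial muscle genes Myl4, Sln and Myl7 stood at 7.70, 7.90 and 5.61 on control 2, against at least 14.61, 13.06 and 10.44 on the other 3 arrays. The other 4 of the 7 atrial genes did not show control 2 far below every other array. Bmp10 and Stard10 were low in both controls (5.31 and 5.39, 8.76 and 8.81) and higher in both transgenic hearts. Nppa, near the top of the scale, stood at 19.90 on control 2 and was lowest on transgenic 2 (18.85). Dkk3 was also lowest on control 2 (7.73), but close to transgenic 2 (7.94), and its groups overlapped. Both transgenic hearts exceeded both controls for 2 of 5 endothelial, 1 of 5 smooth muscle, 3 of 6 adipocyte, 0 of 4 lymphocyte and 0 of 2 erythroid markers, and lay under both for 1, 1, 0, 3 and 0 of them, where 19.4% of all probes lay above and 18.7% under. In whole-heart RNA, fewer cells of a type and less RNA per cell cannot be told apart.

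All 36 oxidation genes had a higher mean in TTg-MI than in Ctrl-MI, where 52.3% of all probes did. The differences ran from 0.030 for Sucla2 to 1.18 for Bcat2 with a median of 0.47, against a median of 0.0086 over all named genes. In limma with Benjamini-Hochberg adjustment over 22206 probes 0 of the 36 passed, the smallest adjusted p being 0.530, and 1 probe in all did (0.0045%). At an unadjusted limma p under 0.05, 7 of the 36 were higher and 0 lower, against 3.18% and 5.07% of all probes. An ordinary linear model without limma's shared variance also passed 0 after adjustment and gave 1 of the 36 at an unadjusted p under 0.05, higher in TTg-MI, as were 2.81% of all probes. Both transgenic hearts exceeded both controls for 22 of the 36, as for 19.4% of probes, and lay under both for 0 (18.7%). Among the brighter probes, those with a mean at or above the median, the shares were 49.5% for a higher TTg-MI mean, 5.26% for the unadjusted p with a higher mean and 18.9% for arrays that did not overlap.

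Control 1 was the lowest of the 4 arrays for 35 of the 36 genes, against 28.4% of all probes and 34.7% of the brighter ones. Control 2 stood above it by a median of 0.58 log2 units, and for 24 of the 36 the gap between the controls was larger than the difference between the groups, near the share of 60.4% over all probes. Transgenic 2 was the highest array for 27 of the 36 (26.1% of probes), and over all 36 it stood above transgenic 1 by a median of 0.21. Without control 1 the median difference was 0.14, 28 of the 36 genes kept a higher TTg-MI mean (52.2% of all probes and 44.4% of the brighter ones did in that fit) and 3 had an unadjusted limma p under 0.05 (2.56% of probes, higher). Without control 2 the median was 0.69, and 26 had an unadjusted p under 0.05 (7.02%), with Bcat2 the 1 gene of the 36 past the adjusted threshold (adjusted p = 0.0409). In that fit 332 probes passed in either direction, and 0.599% of all probes passed with a higher TTg-MI mean. Without transgenic 1 the count at an unadjusted p under 0.05 was 8 (2.12%), and without transgenic 2 it was 3 (1.43%). Control 1 was also the array with the highest fibroblast and macrophage markers and the lowest values of 7 of 8 cardiomyocyte markers. The gap was small for some markers near the top of the scale, such as Atp2a2 (19.922 against 19.928 to 19.932). It was larger for others there, such as Myh6 (19.42 against 19.75 to 19.76) and Tnnt2 (19.51 against 19.89 to 19.91). The gap was larger still for Ryr2 (15.09 against 15.97 to 16.60). Myh7 went the other way, with 18.93 and 18.87 in Ctrl-MI and 17.75 and 17.12 in TTg-MI. The part of these marker values in the oxidation genes was not tested.

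**Figure D1:**
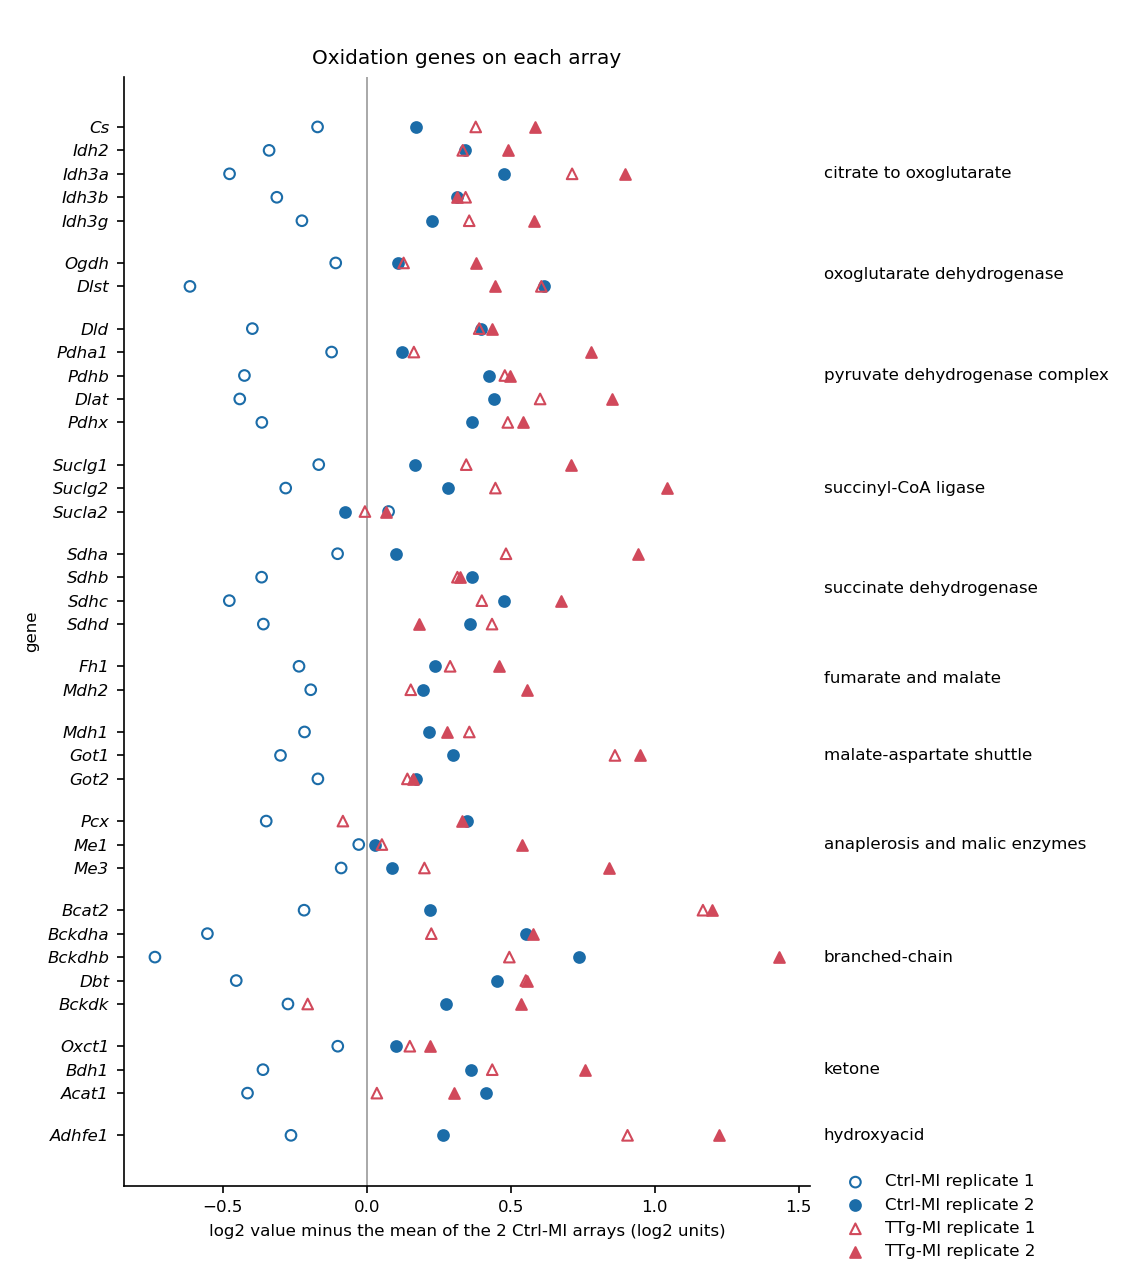
Log2 value of each of the 36 genes on each array minus the mean of the 2 Ctrl-MI arrays (horizontal axis, log2 units), with genes grouped by role (vertical axis). Open and filled circles are Ctrl-MI replicates 1 and 2, open and filled triangles TTg-MI replicates 1 and 2; the open circle lies farthest left for 35 of the 36 genes.

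Bcat2, Adhfe1 and Got1 had the smallest unadjusted limma p of the oxidation genes with all arrays kept (0.0012, 0.0049 and 0.0095). This is a rank within the list. How many of all probes keep differences of such size as single arrays are left out was not counted. Bcat2, the mitochondrial aminotransferase that takes the first step in breaking down branched-chain amino acids, read 9.79 and 10.23 on the Ctrl-MI arrays and 11.18 and 11.21 on the TTg-MI arrays. Both transgenic hearts were higher than both controls and lay within 0.032 of each other. The difference was 1.18 (SE 0.20), a 2.27-fold higher level (limma adjusted p = 0.530), and ran from 0.97 to 1.40 as single arrays were left out.

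Adhfe1 encodes a mitochondrial transhydrogenase that oxidizes gamma-hydroxybutyrate while reducing oxoglutarate. It read 9.92 and 10.44 in Ctrl-MI and 11.09 and 11.40 in TTg-MI. The groups did not overlap, and the lower transgenic heart stood above the higher control. The difference was 1.06 (SE 0.24), or 2.09-fold (limma adjusted p = 0.546), with 0.80 to 1.33 as single arrays were left out.

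Got1, the cytosolic aspartate aminotransferase of the malate-aspartate shuttle, read 16.15 and 16.75 in Ctrl-MI and 17.31 and 17.40 in TTg-MI. Again the 4 arrays fell into their labelled groups. The difference was 0.91 (SE 0.23), or 1.87-fold (limma adjusted p = 0.546), and leaving out single arrays gave 0.61 to 1.21. The lowest of these was the value without control 1.

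Upstream sequences are shown for Bcat2, Got1 and Sdha, which had 3 of the 4 smallest p among the 36 genes, to show how their start regions differ in CG content. They are the 250 bases before each start listed by RefSeq for GRCm38.p6, which lists 2 starts for Bcat2, matched to the arrays by symbol only. Capitals mark CG dinucleotides, the sites of DNA methylation in mammals.
Bcat2, first start, chr7:45569903-45570152, plus strand: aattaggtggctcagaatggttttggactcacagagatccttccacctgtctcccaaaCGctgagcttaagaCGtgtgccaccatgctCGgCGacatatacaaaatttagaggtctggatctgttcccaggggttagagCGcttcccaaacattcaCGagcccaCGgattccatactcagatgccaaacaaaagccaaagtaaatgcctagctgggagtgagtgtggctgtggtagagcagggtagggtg
Bcat2, second start, chr7:45571029-45571278, plus strand: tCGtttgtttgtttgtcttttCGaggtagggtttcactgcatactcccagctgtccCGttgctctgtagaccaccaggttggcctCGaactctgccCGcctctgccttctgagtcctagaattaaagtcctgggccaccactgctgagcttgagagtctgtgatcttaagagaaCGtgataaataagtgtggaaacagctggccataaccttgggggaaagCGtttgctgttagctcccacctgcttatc
Got1, chr19:43524606-43524855, minus strand: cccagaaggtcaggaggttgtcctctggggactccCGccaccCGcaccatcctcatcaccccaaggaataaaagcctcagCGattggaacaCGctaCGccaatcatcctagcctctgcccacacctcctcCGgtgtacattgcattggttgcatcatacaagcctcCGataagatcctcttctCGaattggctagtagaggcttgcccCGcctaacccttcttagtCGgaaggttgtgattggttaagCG
Sdha, chr13:74350241-74350490, minus strand: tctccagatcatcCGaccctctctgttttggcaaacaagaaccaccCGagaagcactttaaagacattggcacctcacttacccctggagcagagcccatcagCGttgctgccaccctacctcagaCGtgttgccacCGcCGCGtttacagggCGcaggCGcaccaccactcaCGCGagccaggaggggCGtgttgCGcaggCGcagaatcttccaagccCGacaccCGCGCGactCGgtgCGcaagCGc
CG dinucleotides numbered 7 in each Bcat2 sequence, 11 in Got1 and 21 in Sdha.

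A start region was listed for 31 of the 36 genes, with Adhfe1 among the 5 others. Over 300 bases (250 before and 50 after the first listed start) these held a median of 20 CG dinucleotides, from 7 in Bdh1 to 35 in Me1, where all 27025 genes with a listed start had a median of 7. Their GC content had a median of 60.3% against 52.7%. Motifs were searched on both strands in every listed start region. The estrogen-related receptor element TCAAGGTCA was found for 1 of the 31 genes, Sdhd, and in 0.423% of all regions. The ETS site CCGGAAGT, bound by GABPA, was found for 1, Dlst, and in 3.89%. The NRF1 site (0.971% of all regions), the T-box site AGGTGTGA (1.28%), the GATA site AGATAAG (3.04%) and the MEF2 consensus (3.19%) were found for 0 of the 31. These counts describe the letters in these windows and not the binding of a factor.

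The pyruvate dehydrogenase complex turns pyruvate into acetyl-CoA. All 5 of its genes had a higher TTg-MI mean, where 52.3% of all probes did. For 4 of them both transgenic hearts exceeded both controls, as for 19.4% of all probes. An unadjusted limma p under 0.05 was held by 0 of them, against 3.18% of all probes with a higher mean. Dlat, the acetyltransferase core, had the smallest p, with 15.01 and 15.90 in Ctrl-MI and 16.06 and 16.30 in TTg-MI (difference 0.73, SE 0.31). Control 1 lay far below every other array, while control 2 was close to the transgenic hearts. Pdhb, the beta subunit of the decarboxylase, read 16.31 and 17.16 against 17.22 and 17.24, and Pdhx, which anchors dihydrolipoamide dehydrogenase, read 10.72 and 11.45 against 11.58 and 11.63. Their differences of 0.49 and 0.52 became 0.064 and 0.15 without control 1, and that of Dlat 0.29. Pdha1, the alpha subunit that the kinases phosphorylate, behaved otherwise, with 15.31 and 15.55 in Ctrl-MI, 15.59 in transgenic 1 and 16.21 in transgenic 2. Its difference of 0.47 was 0.35 without control 1 and 0.16 without transgenic 2. Dld, the shared dihydrolipoamide dehydrogenase, read 15.60 on control 1 and 16.39, 16.39 and 16.43 on the other 3 arrays, so that its difference of 0.41 was 0.015 without that control.

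At the entry of the cycle, Cs, the citrate synthase that joins acetyl-CoA to oxaloacetate, read 16.94 and 17.28 in Ctrl-MI and 17.49 and 17.69 in TTg-MI. The groups did not overlap. The difference was 0.48 (SE 0.19), or 1.40-fold (limma adjusted p = 0.600), and 0.31 without control 1, where the unadjusted p was above 0.05. The NAD-dependent isocitrate dehydrogenase is built from 3 gene products, and its catalytic subunit gene Idh3a had the largest difference of this step, from 16.32 and 17.28 to 17.51 and 17.70 (0.80, SE 0.33). The partner subunit genes Idh3b and Idh3g differed by 0.33 and 0.47. Without control 1 the values for Idh3a, Idh3b and Idh3g were 0.33, 0.016 and 0.24. Idh2, the NADP-dependent mitochondrial isocitrate dehydrogenase, read 17.66 on control 1 and 18.33 to 18.49 on the other 3 arrays, with a difference of 0.41, or 0.073 without that array.

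Oxoglutarate dehydrogenase makes succinyl-CoA. Ogdh, its decarboxylase, read 19.11 and 19.32 in Ctrl-MI and 19.34 and 19.59 in TTg-MI (0.25, SE 0.18). Every array was within 1 log2 unit of its highest value for Ogdh, as it was for Got2, and both TTg-MI arrays were for Mdh1, close to the top of the scale. Without control 1 the difference of Ogdh was 0.15. Dlst, the succinyltransferase core, had 12.59 on control 1, against 13.81, 13.81 and 13.65 on control 2, transgenic 1 and transgenic 2. The difference of 0.53 (SE 0.40) turned to -0.088 without control 1.

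Succinyl-CoA ligase, which makes GTP or ATP from succinyl-CoA, pairs a common alpha subunit with either of 2 beta subunits. The alpha subunit gene Suclg1 read 13.09 and 13.42 in Ctrl-MI and 13.60 and 13.97 in TTg-MI, a difference of 0.53 (SE 0.21, limma adjusted p = 0.600). Suclg2, for the GTP-forming beta subunit, read 9.77 and 10.33 against 10.50 and 11.09, a difference of 0.75 (SE 0.29, limma adjusted p = 0.596). For both genes each transgenic heart was above each control. Sucla2, for the ATP-forming beta subunit, read 8.19 and 8.04 against 8.11 and 8.18, with the groups overlapping. Its difference of 0.030 (SE 0.15) was the smallest of the 36, and it was the single gene for which control 1 was not the lowest array. Whether Suclg2 and Sucla2 differ in their response was not tested. Leaving out transgenic 2 brought Suclg2 to 0.45 and Suclg1 to 0.35, and leaving out control 1 brought Suclg2 to 0.46.

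Succinate dehydrogenase, also complex II of the respiratory chain, has a flavoprotein, an iron-sulphur protein and a pair of membrane anchors. Sdha, the flavoprotein, read 13.28 and 13.48 in Ctrl-MI and 13.86 and 14.32 in TTg-MI. The control hearts were 0.20 apart and both transgenic hearts were higher. The difference was 0.71 (SE 0.21), or 1.64-fold (limma adjusted p = 0.546), 0.61 without control 1 and 0.48 without transgenic 2, with an unadjusted p above 0.05 in both of these fits. The remaining subunits overlapped between the groups. Sdhb (16.34 and 17.07 against 17.02 and 17.03), Sdhc (12.63 and 13.58 against 13.51 and 13.78) and Sdhd (14.68 and 15.40 against 15.48 and 15.22) were lowest on control 1. Their differences of 0.32, 0.54 and 0.31 became -0.046, 0.059 and -0.051 without that array. The next enzymes, fumarase (Fh1) and mitochondrial malate dehydrogenase (Mdh2), differed by 0.37 (SE 0.21) and 0.35 (SE 0.22), or by 0.14 and 0.16 without control 1. Fh1 read 13.11 and 13.58 in Ctrl-MI and 13.64 and 13.81 in TTg-MI, and Mdh2 overlapped.

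**Figure D2:**
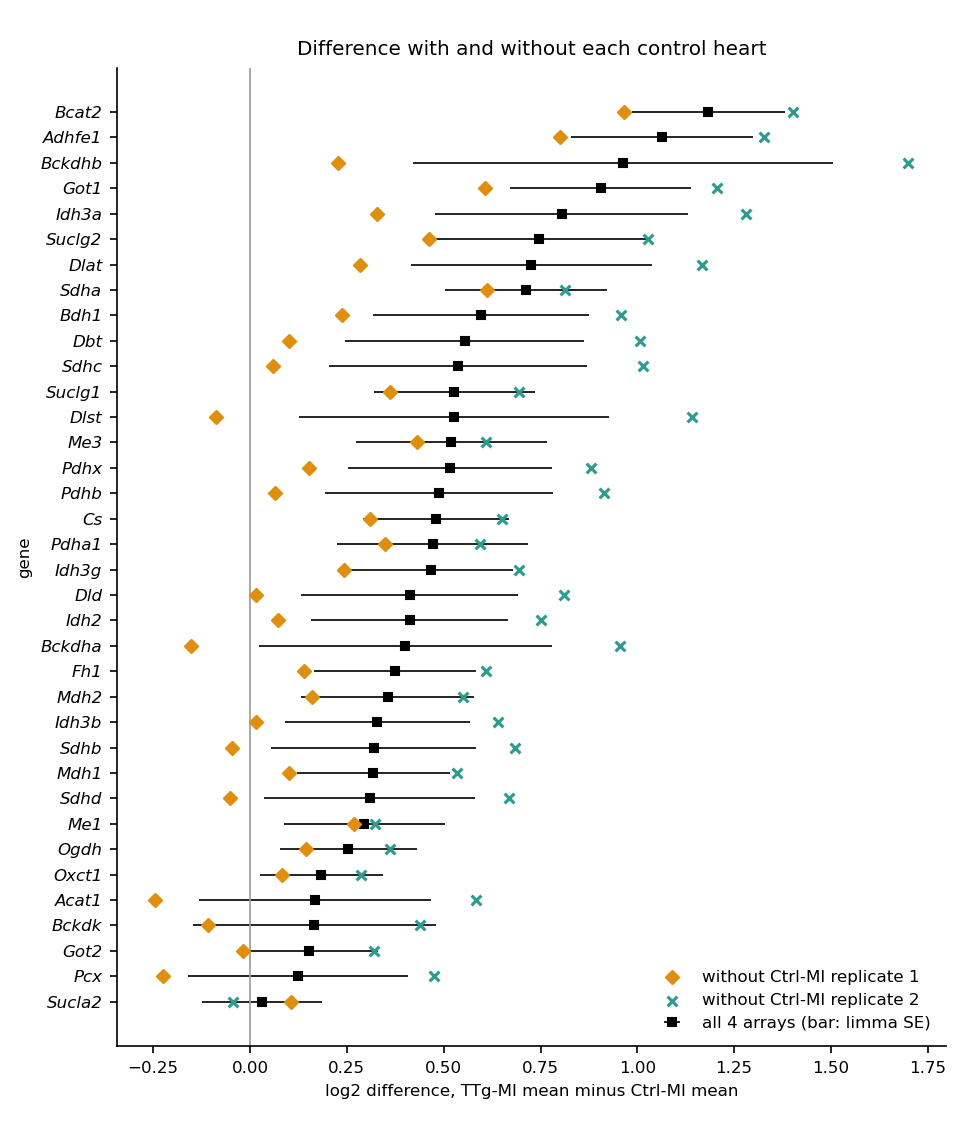
Log2 difference between the TTg-MI and Ctrl-MI means (horizontal axis) for each of the 36 genes (vertical axis, ordered by the difference). Squares with limma SE bars use all 4 arrays, diamonds leave out Ctrl-MI replicate 1 and crosses leave out Ctrl-MI replicate 2; 8 diamonds and 1 cross lie below 0, and the diamonds of Bcat2, Adhfe1, Sdha and Got1 lie above 0.6.

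The malate-aspartate shuttle carries reducing equivalents from the cytosol into mitochondria with a cytosolic and a mitochondrial form each of aspartate aminotransferase and malate dehydrogenase. Its mitochondrial aminotransferase gene Got2 read 19.01 and 19.35 in Ctrl-MI and 19.32 and 19.34 in TTg-MI, near the top of the scale, with a difference of 0.15 (SE 0.18) beside the 0.91 of Got1. The arrays of Got2 overlapped, and its difference was -0.019 without control 1. Mdh1, the cytosolic malate dehydrogenase, read 18.47 and 18.91 against 19.05 and 18.97 (0.32, SE 0.20), with 0.10 without control 1.

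Pyruvate carboxylase (Pcx) refills the cycle with oxaloacetate, and the malic enzymes of Me1 and Me3 turn malate back into pyruvate while making NADPH. Pcx read 6.96 and 7.66 in Ctrl-MI and 7.23 and 7.64 in TTg-MI. The groups overlapped, and the difference of 0.12 (SE 0.28) was -0.22 without control 1. Me3, a mitochondrial malic enzyme, read 12.04 and 12.22 against 12.33 and 12.97 (0.52, SE 0.25), and Me1, the cytosolic one, read 11.18 and 11.24 against 11.26 and 11.75 (0.30, SE 0.21). For these the gap lay between the transgenic hearts, and without transgenic 2 the differences were 0.20 and 0.052. Me1 and Pcx are also fat cell genes, as background, and the adipocyte markers Adipoq, Retn, Cidec, Plin1, Ucp1 and Lep ran from 5.02 to 6.46 over all arrays, below each array's median.

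After Bcat2, the branched-chain dehydrogenase complex carries out the committed step of leucine, isoleucine and valine oxidation. Its subunit genes were led by Bckdhb, for the decarboxylase beta subunit, with 9.83 and 11.30 in Ctrl-MI and 11.06 and 11.99 in TTg-MI. This was the third largest difference of the 36, 0.96, with the largest SE, 0.54, and the groups overlapped. It was 0.23 without control 1 and 0.50 without transgenic 2. Dbt, the acyltransferase core, read 10.82 and 11.72 against 11.82 and 11.83, and Bckdha, the decarboxylase alpha subunit, read 10.65 and 11.76 against 11.43 and 11.79. Their differences of 0.55 and 0.40 became 0.10 and -0.15 without control 1. Of the 5 branched-chain genes Bcat2 alone held an unadjusted limma p under 0.05. With a higher mean, 3.18% of all probes and 5.26% of the brighter ones did.

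Of the 3 ketone enzymes, all had a higher TTg-MI mean (52.3% of all probes did). At an unadjusted limma p under 0.05, 0 were higher, against 3.18% of all probes, and 0 lower. Bdh1, which oxidizes beta-hydroxybutyrate to acetoacetate, read 13.41 and 14.13 in Ctrl-MI and 14.20 and 14.53 in TTg-MI (0.60, SE 0.28), and 0.24 remained without control 1. Oxct1, the transferase that activates acetoacetate, read 16.55 and 16.75 against 16.80 and 16.87, with no overlap but a difference of 0.18 (SE 0.16), or 0.084 without control 1. Acat1, the thiolase that splits acetoacetyl-CoA, read 15.00 and 15.83 against 15.45 and 15.72, and its difference of 0.17 (SE 0.30) turned to -0.25 without control 1.

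Kinases and phosphatases set how much of the pyruvate and branched-chain complexes is active, since phosphorylation switches both off. Among 10 measured genes of pyruvate dehydrogenase control and pyruvate entry, 0 passed adjustment. At an unadjusted limma p under 0.05, 1 was higher and 1 lower, against 3.18% and 5.07% of all probes. The lower one was the kinase Pdk4, known as the fasting-induced isoform, which read 13.53 and 13.41 in Ctrl-MI and 12.93 and 12.72 in TTg-MI. Here the control hearts were 0.12 apart and both transgenic hearts were below them. The difference was -0.65 (SE 0.16), or 1.56-fold lower (limma adjusted p = 0.546), and -0.58 without control 1.

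The higher one was the phosphatase Pdp2, with 7.46 and 8.25 against 8.67 and 9.06 (1.01, SE 0.30, limma adjusted p = 0.546), which was 0.61 without control 1. The kinases Pdk1, Pdk2 and Pdk3 overlapped between the groups. Pdk1 and Pdk2 differed by -0.48 and 0.097, or by -0.80 and -0.24 without control 1. Pdk3 read 5.38 to 6.18 and was under the lower quartile on 3 of the 4 arrays, so that no difference is given for it. The phosphatase Pdp1 (0.73) and the regulatory subunit gene Pdpr (0.68) were low on control 1, and without it differed by 0.0063 and 0.23.

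The branched-chain complex has 1 kinase gene and 1 phosphatase gene among those listed. Bckdk, the kinase, read 10.51 and 11.06 in Ctrl-MI and 10.58 and 11.32 in TTg-MI, overlapping (0.17, SE 0.31), and its difference was -0.11 without control 1 and -0.21 without transgenic 2. Ppm1k, the phosphatase, read 9.90 and 11.48 against 11.99 and 12.49, without overlap. Its difference was 1.55 (SE 0.52), or 2.92-fold (limma adjusted p = 0.572), and 0.76 without control 1.

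**Figure D3:**
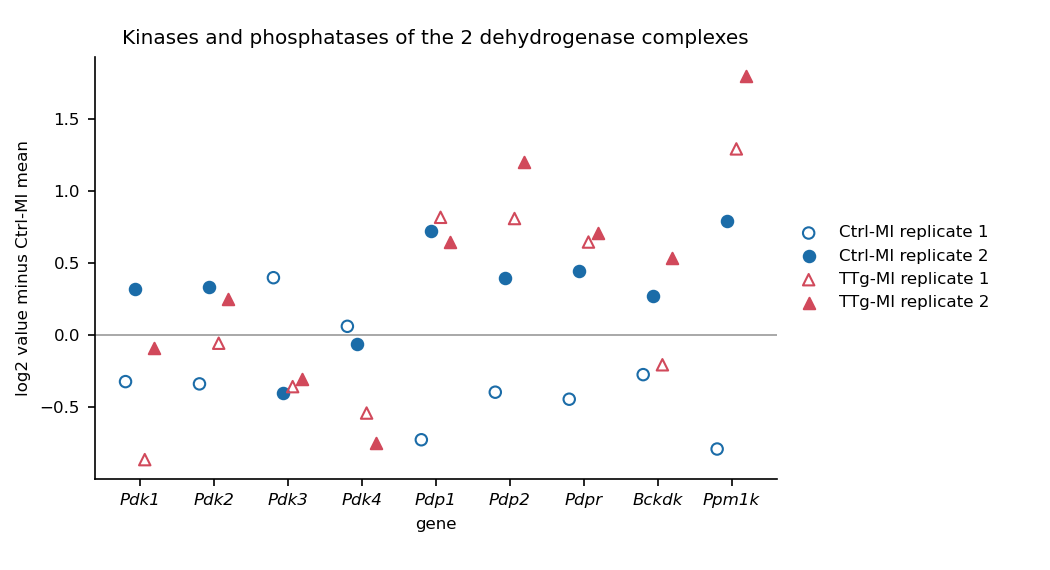
Log2 value minus the Ctrl-MI mean (vertical axis) on each array for genes of kinases (Pdk1 to Pdk4, Bckdk) and of phosphatases or their regulator (Pdp1, Pdp2, Pdpr, Ppm1k). Circles are Ctrl-MI and triangles TTg-MI, open for replicate 1 and filled for replicate 2; both triangles lie below both circles for Pdk4 and above them for Pdp2, Pdpr and Ppm1k.

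Further steps of branched-chain breakdown were also lowest on control 1 for most genes. Of 18 measured genes outside the 36, Ppm1k included, 17 had a higher TTg-MI mean (52.3% of all probes did), with a median difference of 0.51. At an unadjusted limma p under 0.05, 3 were higher (Ppm1k, Mccc1 and Acadsb) and 0 lower, against 3.18% and 5.07% of all probes. Mccc1, a subunit of the leucine-pathway carboxylase, read 9.70 and 10.45 in Ctrl-MI and 10.92 and 11.57 in TTg-MI (1.17, SE 0.33, limma adjusted p = 0.546). Acadsb, a short branched-chain acyl-CoA dehydrogenase, read 12.55 and 12.77 against 13.39 and 13.17 (0.62, SE 0.17, limma adjusted p = 0.546). Control 1 was the lowest array for 17 of the 18, against 28.4% of all probes. Without control 1 the median was 0.041, with 0.79 for Mccc1 and 0.51 for Acadsb.

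Of 18 measured genes for other cycle enzymes, lipoic acid attachment, assembly and carriers, 14 had a higher TTg-MI mean (median 0.23), as had 52.3% of all probes. Without control 1 it was 9 of the 18 (52.2% of all probes), with a median of -0.0083. At an unadjusted limma p under 0.05 with all arrays, 2 were higher (Ogdhl and Lipt1) and 1 lower (Slc25a1), against 3.18% and 5.07% of all probes. Ogdhl, a close relative of Ogdh, read 8.27 and 9.29 in Ctrl-MI and 10.24 and 10.49 in TTg-MI, with no overlap. Its difference of 1.59 (SE 0.35, limma adjusted p = 0.546) was larger than that of any of the 36 genes, and was 1.08 without control 1. Lipt1, which attaches lipoic acid to the dehydrogenase cores, differed by 0.65 (SE 0.22) and by 0.37 without that control. Slc25a1, the mitochondrial citrate exporter, was lower, with 8.75 and 8.77 against 8.39 and 7.96 (-0.59, SE 0.20, limma adjusted p = 0.572). Leaving out transgenic 2 gave -0.37.

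Of 3 other ketone-related genes measured, the monocarboxylate transporter Slc16a7 differed by 1.67 (limma adjusted p = 0.530), Slc16a1 by 0.42 and Bdh2 by -0.062. Without control 1 the latter pair differed by 0.23 and 0.11.

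Set beside neighbouring pathways on the same arrays, the 36 genes' median of 0.47 lay between that of 16 fatty acid oxidation genes (0.63, 15 higher) and that of 19 complex I genes (0.37, 17 higher), and 13 glycolysis genes had 0.14 (8 higher). The TTg-MI mean was higher for 52.3% of all probes and 49.5% of the brighter ones. At an unadjusted limma p under 0.05, 1, 3 and 2 genes of these lists were higher and 0 lower, against 3.18% and 5.07% of all probes. Of the brighter probes 5.26% were higher at that p. The genes were Etfdh for fatty acid oxidation, Ndufs1, Ndufs7 and Ndufc2 for complex I, and Pfkm and Eno3 for glycolysis. In that order they differed by 0.94, 0.81, 0.86, 0.79, 0.57 and 0.68. Without control 1 the values were 0.38, 0.51, 0.95, 0.38, 0.32 and 0.35. Ndufs7 was lowest on control 2. Control 1 was the lowest array for 15, 17 and 8 genes of these lists, against 28.4% of all probes and 34.7% of the brighter ones. Without it the medians were 0.20, 0.065 and -0.032, beside 0.14 for the 36 genes. Genes of all these lists were read from the same 4 hearts, and no test of a difference between lists was made.

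**Figure D4:**
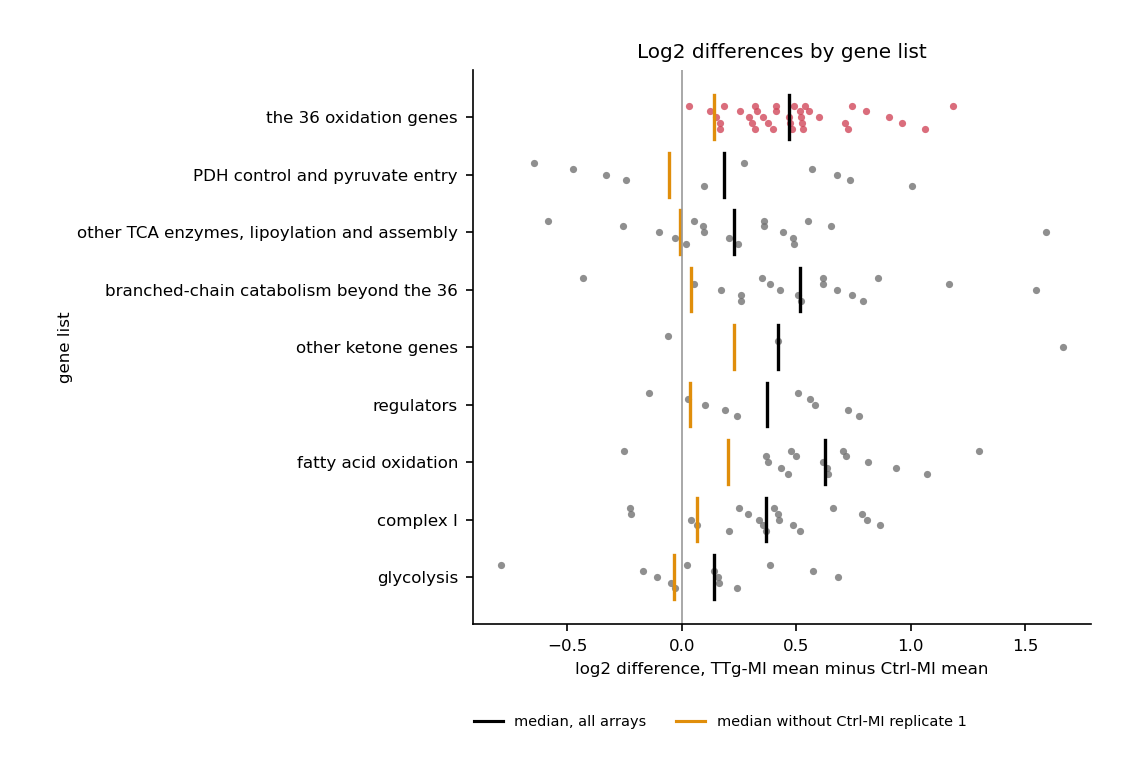
Log2 difference between the TTg-MI and Ctrl-MI means (horizontal axis) for each gene (dots) of the 36 oxidation genes and 8 further lists (vertical axis; vertical offsets within a list only separate dots). Black bars are list medians with all arrays and orange bars medians without Ctrl-MI replicate 1, which are nearer to 0 in all 9 lists.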

How the data were processed

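Total RNA (RNA integrity number above 7.0, per the labels) was hybridized to 4 Clariom S Mouse arrays, 2 a group. The deposited log2 values had been made by the authors using Expression Console (version 1.4), per the submitters' processing notes; neither the sources used here nor the values state the summarization, normalization or build. Their log base was inferred from the range of about 4 to 20. They were used as deposited. Of 22206 probes, 19572 carried 1 gene symbol in the platform annotation and 2634 were unnamed here. Array number limits the precision.

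Every probe was tested in limma 3.58.1 (R 4.3.3; lmFit, eBayes, two-sided) with p-values adjusted by Benjamini-Hochberg across the 22206 and called at 0.05. With 2 residual degrees of freedom the shared variance added 3.56, and for 1 gene the smallest exact permutation p is 0.333. The series' design text calls the hearts independent biological replicates. The fit was tested on simulated data. The genes and lists were chosen with earlier results of these data known. Array values were given for genes with an unadjusted p under 0.05, the 3 highest and 3 lowest differences and the smallest p of each role, and for others as added detail; of each further list, genes with an unadjusted p under 0.05 or the 2 smallest p were named, and others for their role. List counts carry no test. Each array was left out in turn, and further alternatives covered scaling (median centring, quantile normalization), dim probes, limma's prior (trended and robust), a replicate block, several probes per gene, an ordinary linear model and a threshold of 0.1. Promoter sequences are RefSeq's for GRCm38.p6, and no array coordinates are given. Protein sequences were not used here.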

Additional observations from a re-analysis of the deposited data

How the results depend on the processing

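Under median centring, quantile normalization, the filter on dim probes, the robust trended prior, the replicate block and both ways of handling probes, 0 of the 36 genes passed adjustment. With quantile normalization all 36 differences stayed positive. The filter, the prior, the block and the choice of a single probe per gene leave each difference as it was by construction. Median centring moves all differences by the same amount. Positive signs under these settings are therefore no further check. The probes passing adjustment (1) numbered 4 with the trended robust prior and 0 in the ordinary linear model, 1 at a threshold of 0.1, and 1 to 332 with single arrays left out. The genes at an unadjusted p under 0.05 (7) numbered 4 with median centring, 4 with the filter on dim probes, 1 in the ordinary linear model and 3 to 26 with single arrays left out, the highest of each without control 2. The median difference (0.47) ran from 0.14 to 0.69 and the count without overlap (22) from 23 to 35 in those fits, where a lone array overlaps less often by construction. With all arrays kept, the count without overlap was 18 with median centring and 23 with quantile normalization.

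With the replicate number as a block, 7 probes passed and 15 of the 36 genes had an unadjusted p under 0.05, all higher in TTg-MI, beside 4.58% of all probes (3.18% with no block). Same-numbered arrays deviated together with r = 0.16 over probes, and with 2 numbers this does not show that they pair.

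Of the 36 differences, 9 changed sign in a fit without 1 array, 8 of them without control 1. Their ranges over such fits were -0.088 to 1.14 for Dlst, -0.045 to 0.11 for Sucla2, -0.046 to 0.68 for Sdhb, -0.051 to 0.67 for Sdhd, -0.22 to 0.47 for Pcx, -0.15 to 0.95 for Bckdha, -0.21 to 0.54 for Bckdk, -0.25 to 0.58 for Acat1 and -0.019 to 0.32 for Got2. Also, Pcx was -0.083 and Sucla2 -0.0065 without transgenic 2. The cause was not tested. In these fits the remaining array of a group of 1 is taken to be as variable as the other group.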

Other observations

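Regulators of mitochondrial gene expression were read on the same arrays. Of 10 measured, 9 had a higher TTg-MI mean (52.3% of all probes did), with a median difference of 0.37. At an unadjusted limma p under 0.05, 0 were higher and 0 lower, against 3.18% and 5.07% of all probes. Without control 1 the median was 0.035 and 7 were higher (52.2% of all probes). Ppargc1a, the coactivator that drives mitochondrial biogenesis, read 15.89 and 15.89 in Ctrl-MI but 15.12 on transgenic 1 and 16.72 on transgenic 2, so that the transgenic hearts lay on either side of the controls (0.026, SE 0.50). Its relative Ppargc1b read 9.65 on control 1 and 11.12, 11.17 and 11.15 on the other 3 arrays, and the nuclear receptor Esrrg read 8.65 there and 9.59, 9.55 and 9.85. Their differences of 0.78 and 0.58 were 0.042 and 0.11 without that control. Klf15, a regulator of branched-chain amino acid genes, read 7.18 and 6.99 in Ctrl-MI, 6.95 on transgenic 1 and 8.23 on transgenic 2.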
